A study of Mus musculus with 12 samples.

Results

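In mouse footpad skin, 74 of the 25030 array probes in the authors' processed table fell at least 4-fold in wild-type embryos from E15.5 to E16.5 (E for embryonic day), then stayed within 2-fold to E17.5, and differed by under 1.5-fold between beta-catenin knockout and wild type on average over the stages. These probes were selected on measured values, namely the wild-type stage means and the mean genotype difference, with both E16.5 wild-type arrays below both E15.5 ones. The selection did not use the knockout's change between stages directly, but its genotype limit used all knockout arrays and removed 3 of 77 probes. That limit can leave out probes that did not fall in the knockout. Of the 69 members that could be tested, 63 were also called lower in knockout at E16.5 than at E15.5, and 0 higher. Among all probes tested, 30.3% were called lower. The study profiled C57BL/6 footpad skin of 6 groups: wild type and a skin-specific beta-catenin knockout, each on 3 embryonic days (E15.5, then E16.5, then E17.5), and every group had 2 arrays. The labels do not give the driver of the deletion, or whether each sample is 1 animal or a pool, so a p-value here reflects only how these samples vary, and that variation may be technical. All arrays of a stage sat on 1 slide that no other stage shared, and in any change between stages below the stage and the slide cannot be told apart.

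Footpad skin is where the sweat glands of a mouse form. Buds grow from the basal layer of the epidermis into the dermis late in gestation, and the epidermis above them stratifies and cornifies over the same days. Beta-catenin carries the canonical Wnt signal to its target genes in the nucleus, and that signal is needed early in the formation of skin appendages.

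Each probe is a strand of 60 bases on the array. The files give 0 of 42006 probes a gene name or position, and no member shared 30 bases with the RefSeq promoter windows (GRCm38.p6) or miRNA hairpins used here, so members are named by the manufacturer's code. Gene groups, markers of footpad cell types and the level of the deleted gene were not analysed here. Sequences are printed 5′ to 3′ for the members on which the results turn. The first pair is the closest in sequence among all 2701 pairs of members, with 46 identical bases over 57 aligned columns, and capitals mark those bases:
Z00032708-1: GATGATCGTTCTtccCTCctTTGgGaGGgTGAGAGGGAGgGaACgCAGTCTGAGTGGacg
Z00073067-1: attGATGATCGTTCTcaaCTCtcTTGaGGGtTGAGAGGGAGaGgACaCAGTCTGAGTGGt
The next pair aligned with 27 identical bases over 29 columns, and capitals mark the unbroken stretch of 17 bases that both hold:
Z00026369-1: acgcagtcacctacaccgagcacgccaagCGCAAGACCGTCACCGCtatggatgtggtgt
Z00031209-1: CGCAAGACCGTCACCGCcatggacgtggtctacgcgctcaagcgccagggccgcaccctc
The members with the largest fall in wild type (authors' table) and in the knockout (ratios used here) were, with no capitals:
Z00060830-1: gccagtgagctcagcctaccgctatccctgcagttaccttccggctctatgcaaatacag
Z00076227-1: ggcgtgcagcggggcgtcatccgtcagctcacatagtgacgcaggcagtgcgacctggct
Another 4 members lay within 9 consecutive code numbers, and they are shown because every probe in that stretch fell:
Z00078091-1: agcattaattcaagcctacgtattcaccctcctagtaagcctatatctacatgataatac
Z00078094-1: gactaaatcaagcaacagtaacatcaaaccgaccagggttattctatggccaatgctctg
Z00078097-1: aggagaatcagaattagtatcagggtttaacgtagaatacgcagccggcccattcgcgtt
Z00078099-1: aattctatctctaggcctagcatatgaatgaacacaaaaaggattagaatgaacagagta

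As a group the 74 sequences were close to the rest of the table. Their median GC content was 42.5% (range 25.0% to 70.0%), against 43.3% over the 25030 probes. The letters AATAAA, the core of the commonest polyadenylation signal, were found on the printed strand in 8 members (10.8%) and in 7.9% of the table. A reading frame open over the whole probe was found in 78.4% of members and 82% of the table. The members were spread over the array, from row 10 to row 517 and from column 1 to column 85.

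The selection began with 91 probes that fell at least 4-fold in wild type, against 55 that rose by as much. Of the 91, 90 had separate arrays and 77 stayed within 2-fold from E16.5 to E17.5. The probes left out at that step went further down in 7 cases and came back up in 6. The genotype limit removed 3 more, all higher in the knockout, and left 74. Just inside the 4-fold limit lay Z00030098-1 at 4.005-fold, and just outside lay Z00018216-1 at 3.996-fold. At the limit on the later step, Z00020232-1 was inside with a rise of 1.946-fold and Z00064647-1 outside with 2.126-fold. Among later falls, Z00023425-1 was inside at 1.932-fold and Z00026395-1 outside at 2.529-fold. At the limit on the genotype difference, Z00023637-1 was inside at 1.461-fold higher in knockout and Z00028720-1 outside at 1.506-fold.

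Levels below are log2 ratios of footpad RNA (Cy3) over a common reference RNA (Cy5) on the same array, so that 0 means equal signal in both and 1 means a 2-fold excess in footpad. The reference was the same mixture of cultured-cell RNA on every array. Cy3 was well above background for 63 to 71 of the 74 members on the E15.5 arrays, 56 to 61 on the E16.5 arrays and 52 to 55 on the E17.5 arrays. Over all probes that share went the other way at the first step, from 59.1% to 65.3% at E15.5 to 69.2% to 72.4% at E16.5. At E17.5 it was lower again, at 63.0% to 68.0%. No member was saturated in Cy3. The members split by signal: 52, the bright members, were well above background on every array with a usable spot, and 22, the dim members, were not. For 51 of the 52 that was all 12 arrays, and for Z00041814-1 it was 11, since its spot on the wild-type array of replicate 1 at E15.5 was an outlier. Of the 22 dim members, 17 were tested and 5 were too dim on too many arrays to test. Of the 74, 8 were above background on at least 1 E15.5 array and on no later one, and 2 were above it on no array.

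**Figure D1:**
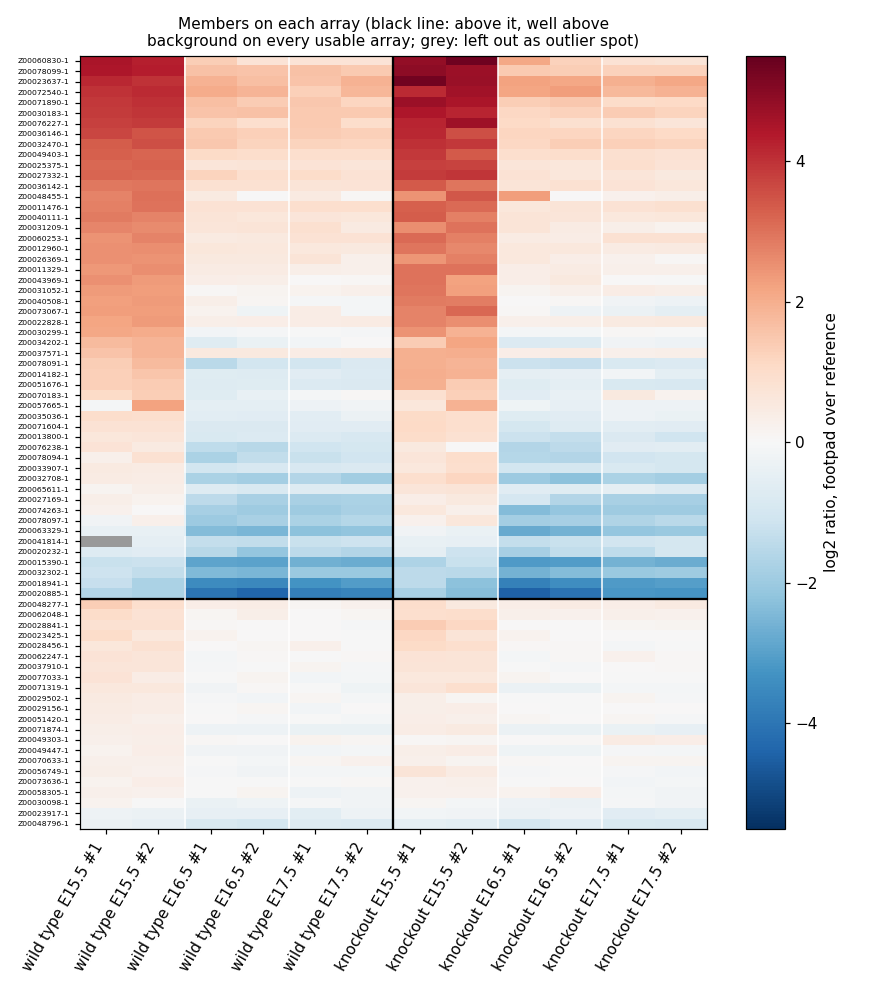
The heat map plots the log2 ratio of footpad over reference for each of the 74 members (1 line each) on each of the 12 arrays (columns, grouped by genotype and stage), from blue (below the reference) to red (above it). The E15.5 columns stand above the later ones in both genotypes, and the 22 dim members under the black line stay between -0.97 and 1.41 on every array.

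In the 52 bright members the wild-type arrays had median log2 ratios of 2.19 and 2.25 at E15.5, 0.13 and -0.06 at E16.5, and -0.01 and 0.04 at E17.5. The knockout arrays had medians of 2.44 and 2.21 at E15.5, 0.03 and -0.04 at E16.5, and 0.03 and -0.03 at E17.5. In both genotypes the typical bright member was thus over 4-fold above the reference at E15.5 and level with it on the 2 later days. In knockout, 27 of the 52 were at least 4-fold over the reference at E15.5 and 2 of them at E16.5. Not every member was high in footpad. The bright members ranged at E15.5 in knockout from -2.07 to 5.10, and after the fall from -4.26 to 2.25.

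From E15.5 to E16.5 in knockout, 63 of 69 tested members were called lower (91.3%), 0 higher, and 6 were not called, by limma's moderated test with Benjamini-Hochberg adjusted p under 0.05 over all 30366 probes. The same call was made for 30.3% of all probes tested, so this was a step at which much of the array moved. For 67 of the members (97.1%) both E16.5 arrays lay below both E15.5 arrays, against 40.6% of all probes. The median member difference was -2.16 (a 4.46-fold fall), with a range from -3.47 to 0.07, while the median over all probes was -0.03. A fall of 4-fold or more was measured in 37 of the 69 tested members, out of 275 with a fall of that size among all 30366 probes tested. All 52 bright members were called lower, with a median of -2.36 (5.13-fold). Of the 17 dim members tested, 11 were called lower and the median was -0.65 (1.57-fold). Knockout and wild-type samples of a stage shared a slide, so a difference between slides would enter both genotypes alike. The wild type, which the selection fixed, had a median of -1.96 (3.9-fold) over the same 69 members.

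**Figure D2:**
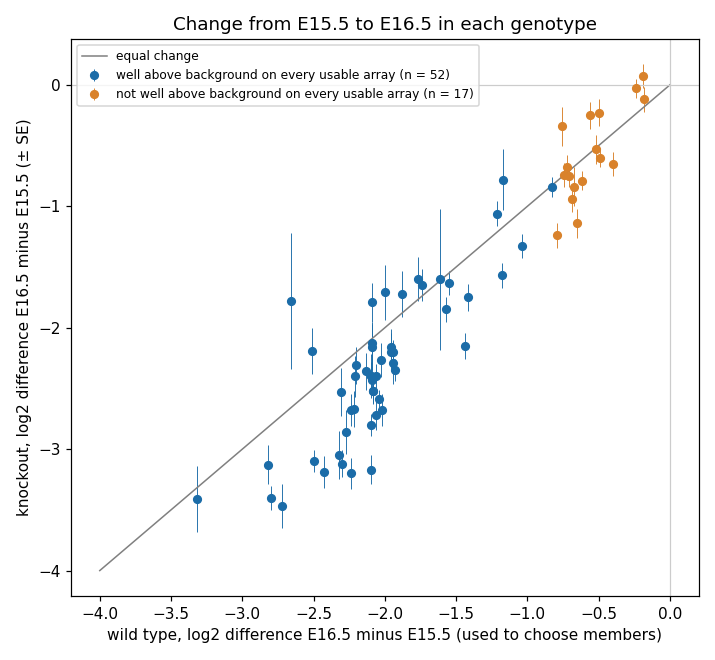
The scatter plot sets the log2 difference between E16.5 and E15.5 in knockout (vertical axis, bars ± SE of the limma fit) against that in wild type (horizontal axis), for the 69 members tested. The 52 bright members (blue) range from -3.47 to -0.78 in knockout, and the 17 others (orange) from -1.24 to 0.07.

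In these ratios the largest fall in the knockout was that of Z00076227-1. Its log2 ratio was 4.21 and 4.67 at E15.5, 1.08 and 0.86 at E16.5, and 0.84 and 0.66 at E17.5 in knockout. In wild type it was 3.76 and 3.85, then 1.22 and 0.94, then 1.45 and 0.95. The E15.5 arrays of both genotypes were far above all the later ones. The later arrays overlapped in wild type, and in knockout both E16.5 arrays lay above both E17.5 arrays. The knockout difference was -3.47 (SE 0.18, an 11.1-fold fall, limma adjusted p = 2.64e-07), and the wild-type difference was -2.72. On the knockout arrays its reference signal (Cy5) rose by 0.52 from E15.5 to E16.5 (limma adjusted p = 0.00107). The order of the steepest members changed with the processing: with Agilent's processed ratios Z00037571-1 (-3.64) fell more than Z00076227-1 (-3.46), and in Cy3 alone Z00060830-1 (-3.41) fell more than Z00076227-1 (-2.90).

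The member with the largest wild-type fall in the authors' table, Z00060830-1, was also the highest of all in knockout at E15.5. Its knockout arrays were at 4.84 and 5.37 at E15.5, 2.12 and 1.26 at E16.5, and 0.78 and 0.71 at E17.5. Its wild-type arrays were at 4.49 and 4.28, then 1.37 and 0.76, then 0.75 and 0.76. In both genotypes the E15.5 arrays were clear of the rest, and in knockout the E16.5 arrays also lay above both E17.5 arrays. The first knockout step was -3.41 (SE 0.27, 10.6-fold, limma adjusted p = 2.99e-06). The second was -0.95 (SE 0.27, limma adjusted p = 0.027), and it was not called in 6 of the alternatives, including when knockout replicate 1 at E16.5 was left out (adjusted p = 0.228).

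The members shown first for their likeness in sequence had like profiles on different levels. Z00032708-1 was at 0.94 and 1.19 in knockout at E15.5 and at -2.01 and -2.26 at E16.5. Z00073067-1 was at 2.73 and 3.15 at E15.5 and at 0.06 and -0.28 at E16.5. Both fell in every comparison of arrays across this step, by 3.20 (SE 0.13, limma adjusted p = 9.12e-08) and by 3.05 (SE 0.20, limma adjusted p = 1.01e-06) on the log2 scale. In wild type they fell by 2.24 and by 2.32, and at E15.5 each was 0.64 higher in knockout than in wild type. With sequences this close they may read the same RNA, which was not tested. Each is counted separately in the counts of members given here, so these 2 entries may not be independent. The reference signal of both also rose, as given below.

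The other pair moved almost as 1 probe. Z00026369-1 was at 2.43 and 2.78 in knockout at E15.5 and at 0.56 and 0.35 at E16.5. Z00031209-1 was at 2.57 and 2.97 at E15.5 and at 0.70 and 0.45 at E16.5. Their knockout differences were -2.16 and -2.20 (SE 0.15 and 0.16, limma adjusted p = 1.57e-06 and 1.7e-06), and both wild-type differences were -1.96. Another probe, Z00030464-1, holds 51 of the bases of Z00031209-1, was not in the authors' table, and fell by 2.26 in knockout. Outside that table, 5 probes in all share at least 30 bases with a member, and all 5 were called lower in knockout. Whether these 5 read the same transcripts as the members was not tested. They were read on the same arrays, so they do not repeat the biological sample.

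The other members among the highest or the steepest were of the same form. Z00078099-1 fell by 3.40 (SE 0.10, limma adjusted p = 4.4e-08), from 4.90 and 4.71 to 1.46 and 1.36 in knockout. On the same arrays its reference signal (Cy5) rose by 0.52 (limma adjusted p = 0.00366), and in Cy3 alone its difference was -2.58. Z00071890-1 fell by 3.19 (SE 0.13, limma adjusted p = 8.24e-08) from means of 4.62 to 1.43. Z00023637-1, near the limit on the genotype difference, fell by 2.86 (SE 0.18, limma adjusted p = 6.3e-07), from 5.29 and 4.75 to 2.21 and 2.12. In each the knockout arrays of the 2 stages were more than 2 log2 units apart, several times the gap between replicates.

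Single arrays weighed on 3 of the 10 members with the largest wild-type falls in the authors' table. Z00041814-1 stood at 3.920 and 2.751 in the log10 values of the authors' deposited table for wild type at E15.5, and at 2.446 and 2.431 at E16.5. Its fall there was 7.88-fold on the mean of both arrays and 2.05-fold on replicate 2 alone. The spot behind the first value was left out here as an outlier, and the ratios gave a fall of 1.77-fold in wild type and of 1.79-fold in knockout (limma adjusted p = 2.36e-05). Without that array its fall would not reach the 4-fold limit.

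For the others the replicates were far apart in at least 1 group. Z00057665-1 was at -0.09 and 2.22 on the wild-type arrays at E15.5, the only member there with usable replicates over 1 log2 unit apart. In knockout it was at 0.64 and 1.90 at E15.5 and at -0.22 and -0.45 at E16.5, a fall of 1.60 (SE 0.58, limma adjusted p = 0.0345). It lost its call in 6 alternatives, with adjusted p up to 0.213 without knockout replicate 2 at E15.5. Z00048455-1 fell on both wild-type arrays, and its knockout arrays at E16.5 were at 2.29 and 0.03. Its knockout fall was 1.78 (SE 0.56, limma adjusted p = 0.0192). The difference was -2.91 without the higher of those E16.5 arrays (replicate 1, adjusted p = 0.000226) and -0.65 without the lower (replicate 2, adjusted p = 0.167). It also lost its call without knockout replicate 2 at E15.5 (adjusted p = 0.112) and in 4 more alternatives.

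How far the dim members fell depended on the processing of the intensities. In the authors' table the selection held every member to a wild-type fall of at least 4-fold. The median there was 4.66-fold for the 22 dim members and 4.45-fold for the 52 bright ones, and that floor limits how far these medians could differ. In the ratios used here, in which 50 was added to both background-corrected channels, the tested dim members had a median fall of 1.54-fold and the bright ones 4.24-fold. Adding 50 draws the ratio of a dim spot towards 0. Which of these folds is nearer the change in RNA of dim probes was not tested. With Agilent's own processed ratios the knockout medians were -2.67 for the 17 dim members, of which 12 were called lower, and -2.44 for the 52 bright ones, of which 51 were called. In that fit 24.7% of all probes tested were called lower. With median centring in place of loess, the dim median was -0.68. Bright members could move as far. Z00037571-1, with a 7.41-fold wild-type fall in the authors' table, was at 1.96 and 2.00 in knockout at E15.5 and at 0.36 and 0.46 at E16.5. Its knockout difference was -1.57 (SE 0.10, limma adjusted p = 9.17e-07) in these ratios and -3.64 with Agilent's processed ratios.

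**Figure D3:**
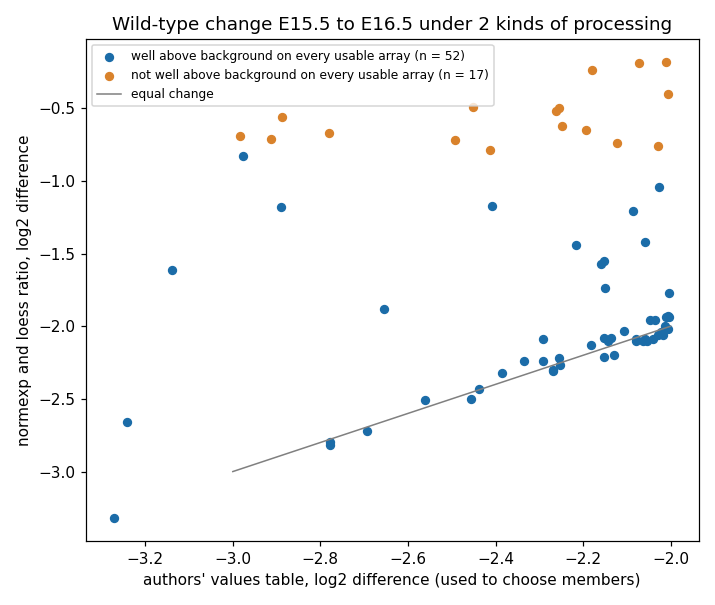
The scatter plot compares the wild-type log2 difference between E16.5 and E15.5 in the authors' table (horizontal axis, the value that chose the members) with that in the ratios used here (vertical axis), for the 69 members tested. Most of the 52 bright members (blue) lie near the line of equal change, and all 17 others (orange) lie between -0.79 and -0.18 on the vertical axis.

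The dim members with the largest falls in the authors' table show this. Z00028456-1 (7.9-fold in the table) was at 1.07 and 0.94 in knockout at E15.5 and at 0.06 and 0.06 at E16.5, a difference of -0.94 (limma adjusted p = 5.35e-05). Z00037910-1 (7.53-fold) was at 0.70 and 0.73, then -0.01 and -0.06, a difference of -0.75 (limma adjusted p = 3.78e-05). Z00029502-1 (7.39-fold) was at 0.33 and 0.12, then -0.01 and -0.04, a difference of -0.25 (limma adjusted p = 0.0767). The first 2 were called lower in every alternative, and Z00029502-1 was called in 5 of 20.

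Among dim members, 12 were not well above background on either knockout array at E16.5, so that their level there is only bounded. Of these, 5 were well above background on a knockout array at E15.5, and their bounds ran from at least 1.29-fold to at least 2.06-fold lower at E16.5. Each bound sets the E15.5 mean of Cy3 against the dimmest Cy3 signal still well above background on each E16.5 array. Where the probe's own E16.5 signal was higher than that, its own signal was used. Signals were taken after loess and Aquantile scaling, and dye bias may enter the bounds. The smallest knockout differences were also in dim members. They were 0.07 for Z00058305-1, -0.03 for Z00049303-1, -0.12 for Z00023917-1 and -0.23 for Z00048796-1, with limma adjusted p between 0.107 and 0.741. The sign of Z00058305-1 turned with median centring (-0.31), and that of Z00049303-1 turned with Agilent's processed ratios (0.60). The 5 untested members (Z00070633-1, Z00029156-1, Z00073636-1, Z00051420-1 and Z00030098-1) had log2 ratios between -0.37 and 0.45 on every array.

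From E16.5 to E17.5 in knockout, 12 of the 69 members were called (17.4%), 3 lower and 9 higher. Over all probes tested, 23.6% were called, 2447 of the 30366 lower and 4719 higher, so the members' share was under the background in this fit. The member median was 0.03, with a range from -0.95 to 1.03. With the replicate number as a block, 26 members (37.7%) and 35.5% of all probes were called. With single arrays left out the count moved up and down, and the share of all probes was not computed for those fits. The member median in them was -0.01 to 0.07. In wild type, where the later step was limited by the selection, the median was also 0.03.

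Of the 5 largest of these later changes, 4 were rises in bright members that had fallen the day before. Z00020885-1, the lowest member of all against the reference, was at -1.78 and -2.36 in knockout at E15.5, at -4.46 and -4.06 at E16.5, and at -3.19 and -3.26 at E17.5. It fell by 2.19 and then rose by 1.03 (SE 0.19, limma adjusted p = 0.00288), so the E17.5 arrays lay between those of the earlier stages. Z00076238-1 was at 0.55 and 0.00, then -1.59 and -1.46, then -0.63 and -0.59. Its later rise was 0.91 (SE 0.16, limma adjusted p = 0.0024). Z00070183-1 rose by 0.86 (SE 0.18, limma adjusted p = 0.00591), from -0.64 and -0.39 to 0.53 and 0.18, but only by 0.39 in Cy3 alone (adjusted p = 0.118). It was also not called without knockout replicate 1 at E16.5 (adjusted p = 0.0576) or at E17.5 (adjusted p = 0.0593). Z00063329-1 rose by 0.60 (SE 0.10, limma adjusted p = 0.00221), from -2.79 and -2.58 to -2.12 and -2.05. In wild type the same probes differed by 0.48, 0.43, 0.52 and 0.24 between E16.5 and E17.5.

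Between genotypes the members were compared as a description only, since the mean of these differences was limited by the selection. At E15.5 the median difference, knockout minus wild type, was 0.24, with 57 of 69 members above 0, against a median of 0.01 over all probes. At E16.5 it was -0.03 and at E17.5 it was 0.01. The E15.5 differences ran from -0.39 to 0.95, under 2-fold for every member in these ratios. Of the 74, 5 were at least 2-fold apart at E15.5 in the authors' table, 1 higher and 4 lower in knockout. The lower ones included Z00049303-1 (3.77-fold), Z00048796-1 (2.83-fold) and Z00041814-1 (3.77-fold, with the outlier spot). They were above 0 in 45 of the 52 bright members (median 0.27) and in 12 of the 17 dim ones (median 0.04). The largest at E15.5, 0.95, was that of Z00023637-1, whose wild-type arrays were at 4.16 and 3.98 and whose knockout arrays were at 5.29 and 4.75. The largest at E16.5, 0.93, was that of Z00048455-1, and it rests on the knockout array named above. Positions 1 and 2 of every slide held knockout and positions 3 and 4 wild type, so genotype and position cannot be told apart.

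The reference RNA was the same mixture on every array, so its channel holds no difference between stages of footpad skin. On the knockout arrays, 19 of 69 members (27.5%) were called as different in the reference between E16.5 and E15.5, against 6.97% of all probes. Of these, 15 were higher and 4 lower at E16.5, all 19 were bright members, and the median over the 69 was 0.06 against 0.03 over all probes. A rise in the reference lowers the ratio, and 3 of the rises exceeded 2-fold. They were 1.64 for Z00032708-1 (limma adjusted p = 0.000442), 1.17 for Z00078091-1 (limma adjusted p = 2.28e-05) and 1.08 for Z00073067-1 (limma adjusted p = 0.00066). In the footpad channel alone these members were lower by 1.46, 1.59 and 1.96, where their ratios had fallen by 3.20, 3.13 and 3.05. Over the 15 members with a rise in the reference, the median difference was -2.31 in the ratio and -1.46 in the footpad channel alone. In that channel 67 of the 69 members were below 0, with a median of -1.71. By limma's test there, 63 of the 69 were called lower, against 23.8% of all probes tested. Whether slide, dye or labelling differed between the stages for these probes was not tested.

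**Figure D4:**
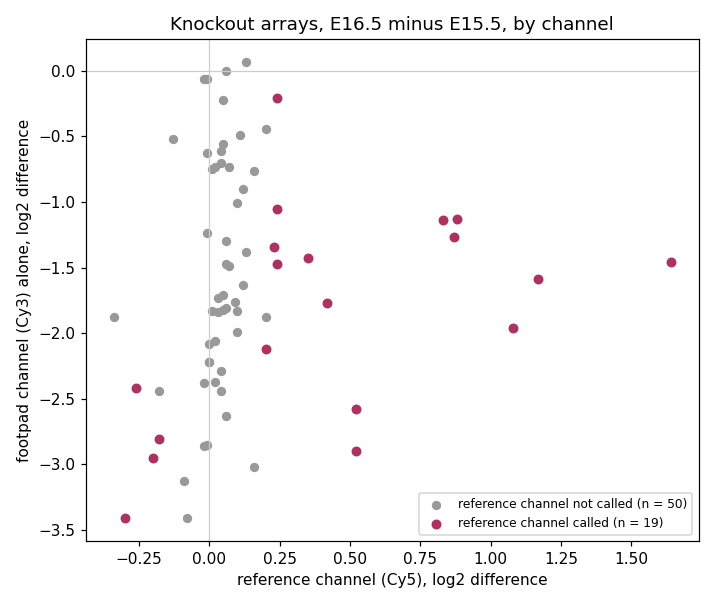
The scatter plot sets the log2 difference between E16.5 and E15.5 on the knockout arrays in the footpad channel alone (vertical axis, quantile normalized) against that in the reference channel (horizontal axis), for the 69 members tested. The 19 members called in the reference (red) include 3 more than 1 log2 unit to the right of 0, at -1.46 to -1.96 on the vertical axis.

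The members from Z00078091-1 to Z00078099-1 belong to a longer stretch of codes that fell, and the stretch was singled out after its values were seen. From these members it was extended to each next code while that probe was called lower in knockout. The call thus set where the stretch ends, and it was made for 30.3% of all probes tested. All 13 probes from Z00078091-1 to Z00078103-1 were called lower in knockout at E16.5, by 0.47 to 3.40 on the log2 scale, with a median of -1.54 and a highest limma adjusted p of 0.00278. All 13 were also lower in wild type, by 0.54 to 2.82, with a median of -1.43. Only 4 of them were members, since the others missed the 4-fold limit or were not in the authors' table. In code order the members were Z00078091-1 (-3.13 in knockout), Z00078094-1 (-2.40), Z00078097-1 (-2.29) and Z00078099-1 (-3.40). The largest falls among the other 9 were those of Z00078101-1 (-2.37) and Z00078095-1 (-1.85). After the stretch, the next code, Z00078104-1, was at -0.25 (limma adjusted p = 0.0624). Before it, only Z00078083-1 of 10 codes was bright enough to test, and it too was called lower, by 0.41 (limma adjusted p = 0.00717), so where the stretch begins is not known. The sources used here do not say what the manufacturer's numbering stands for.

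**Figure D5:**
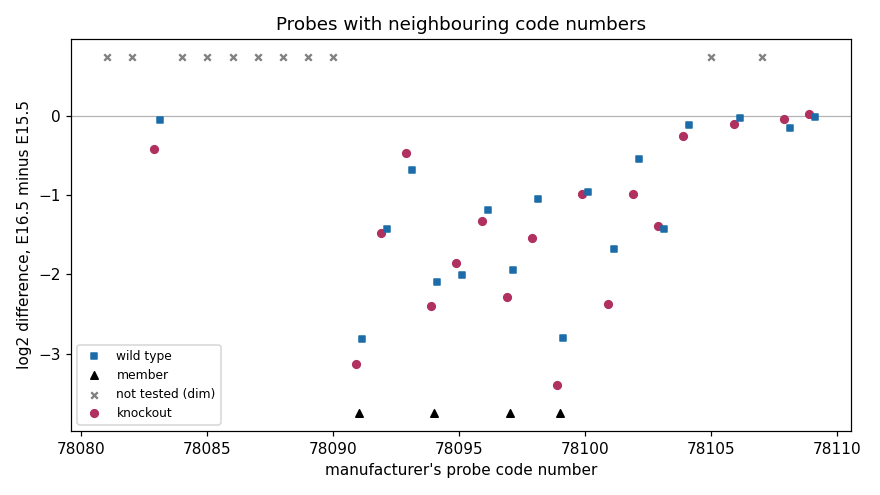
The plot shows the log2 difference between E16.5 and E15.5 in knockout (circles) and wild type (squares) for probes with neighbouring code numbers (horizontal axis), with members marked by triangles and probes too dim to test by crosses at an arbitrary height. The 13 probes of the stretch lie between -3.40 and -0.47 in knockout, and the 4 tested probes after it between -0.25 and 0.03.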

How the data were processed

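Footpad RNA (Cy3) and a common reference (Cy5) were read on 12 Agilent arrays. The deposited scanner files hold each spot's intensity in both channels and Agilent's log10 ratio. Agilent Feature Extraction 9.5.1.1 produced them, per the file headers. The authors' series table of 25030 probes is on a log10 scale. Its differences between arrays correlated at 0.899 to 0.993 with those of the log10 footpad over reference ratio over 66 pairs of arrays, and its column medians ran from 2.556 to 2.588. Its centring is otherwise unknown.

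Of 43451 spots per array, 1417 were controls. Intensities were corrected with normexp (offset 50) in limma 3.58.1 (R 4.3.3) and normalized by loess within each array. Probes with Cy3 well above background on fewer than 2 arrays were left out, 11639 in all, and 1 more for outlier spots, which left 30366 of 42006. limma's moderated test was run on 6 group means with 6 residual and 4.7 prior degrees of freedom. Precision is limited by the number of arrays. The scripts were tested on simulated data.

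Members and lists were chosen with earlier results of these data known. Named members are the 10 with the largest wild-type fall, the 5 highest in knockout at E15.5, the 5 largest and 5 smallest knockout falls, the 5 largest called later changes, and those at the limits of the selection. Others were named after their values were seen, for their sequence, code or reference signal. With no gene names, the planned probe identities, gene lists and cell type markers were not analysed here.

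Same-numbered knockout and wild-type samples deviated together, correlating by 0.61 (E15.5), 0.25 (E16.5) and 0.16 (E17.5), which meets the rule used for pairing. The tests are unpaired, and the fit with the number as a block is an alternative. Each correlation rests on 1 replicate difference per genotype. Alternatives changed the normalization, the filter, the block, array weights, the arrays fitted, and left out each array in turn.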

Additional observations from a re-analysis of the deposited data

How the results depend on the processing

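The count of members called lower in knockout from E15.5 to E16.5 was 62 to 66 in the alternatives that kept both arrays of each group fitted. Of the 63 called members, 60 to 63 kept their call in each. Beside them, 17.6% (median centring) to 34.3% (replicate block) of all probes were called lower. With single arrays left out, the members' median difference was -2.20 to -2.05. The count of later changes, 12, was 7 with Agilent's processed ratios, 30 with array weights, 26 with the replicate block, and 5 to 22 with single arrays left out. The replicate block moved neither the count of early falls (65) nor, in a fit added after seeing the data, that of the reference channel (14) by over 1.5 times. It added a call for Z00029502-1 (-0.25, limma adjusted p = 0.0155). The median wild-type fall, -1.96, was -2.16 with Agilent's processed ratios, -2.18 in the authors' table, -1.59 with median centring and -1.53 in Cy3 alone. The median genotype difference at E15.5, 0.24, was 0.18 with median centring, 0.17 in Cy3 alone and 0.18 to 0.29 with single arrays left out. At E17.5 it was 0.08 with median centring. The count called in the reference channel, 19, was 53 with loess only, where 71.2% of all probes were called and the median over all probes was 0.40. It was 12 to 20 with single arrays left out, lowest without knockout replicate 2 at E16.5. Single probes reversed in 5 cases: Z00058305-1 at -0.31 with median centring and -0.01 without knockout replicate 2 at E16.5 (range with single arrays left out -0.01 to 0.16), and Z00049303-1 at 0.60 with Agilent's processed ratios, 0.64 in the authors' table and 0.00 without knockout replicate 2 at E15.5 (range -0.07 to 0.00). Z00041814-1 lost its call in the authors' table, which keeps the outlier spot, with a difference of -0.92 (limma adjusted p = 0.556) against -0.84. The causes were not tested. For dim probes, signal over background limits what can be said of the size of a fall.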
